A study of Mus musculus with 48 samples.

Results

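The change in liver RNA between collection times 0 h and 4 h was measured over 2 genotypes together, in 8 libraries at 4 h and 8 libraries at 0 h out of 48 libraries in all. The libraries were chosen by their labelled collection time, with genotype as a covariate and without the albumin row. KO mice had floxed Bmal1 (Bmal1 fx/fx, a gene listed as Arntl) together with aP2-Cre, a recombinase that the aP2 promoter drives. WT mice were their littermate controls. All were C57BL/6 mice of 4 to 6 months, fed freely, kept for 36 h in constant darkness and killed in darkness, with 4 KO and 4 WT livers at 4 h and 4 KO and 4 WT livers at 0 h. Per the labels, no mouse gave more than 1 library. The aP2 promoter is best known for its activity in adipocytes and is not a hepatocyte promoter. The question is which liver genes differ between mice killed at 4 h and mice killed at 0 h, and whether that step differs between KO and WT.

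The mammalian circadian clock is a loop of transcription factors. BMAL1, the product of Arntl, pairs with CLOCK or NPAS2 and binds E-box motifs in the genes of its own repressors (the PER and CRY proteins), of the nuclear receptors REV-ERB alpha and beta (Nr1d1 and Nr1d2) and of the PAR bZIP factors (Dbp, Tef and Hlf). REV-ERBs repress and RORs activate Arntl, Npas2, Cry1 and Nfil3 through RORE motifs, and PAR bZIP factors activate and NFIL3 represses genes with D-box motifs. In liver this loop and the daily cycle of feeding drive rhythms in lipid, glucose and drug metabolism.

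Promoters of 5 clock genes that passed the test of the step are printed, since each holds a match to a motif of the loop. They are RefSeq sequences of build GRCm38.p6, 250 bases before to 50 bases after the gene's start, read 5′ to 3′ on the gene's own strand, with matches to the motif in capitals. Motifs were searched on both strands as CACGTG for the E-box, TTATGTAA or TTACGTAA for the D-box and TAGGTCA for the RORE. No printed window held more than 1 of the 3 motifs.
Per3 (rose, D-box, chr4:151044616-151044915, minus strand): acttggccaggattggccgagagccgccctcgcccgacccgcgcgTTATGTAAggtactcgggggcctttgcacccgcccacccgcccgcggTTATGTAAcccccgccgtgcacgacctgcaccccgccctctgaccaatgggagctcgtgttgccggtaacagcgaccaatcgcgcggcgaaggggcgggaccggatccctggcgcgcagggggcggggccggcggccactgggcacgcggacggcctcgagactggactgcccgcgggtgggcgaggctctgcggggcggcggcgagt
Tef (rose, E-box, chr15:81802423-81802722, plus strand): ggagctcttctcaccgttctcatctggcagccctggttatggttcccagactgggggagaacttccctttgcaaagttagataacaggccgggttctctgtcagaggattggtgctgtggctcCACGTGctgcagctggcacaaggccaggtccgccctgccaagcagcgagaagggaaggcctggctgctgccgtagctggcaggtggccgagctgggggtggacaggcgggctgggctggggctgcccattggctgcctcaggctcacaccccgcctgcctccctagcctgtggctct
Arntl (fell, RORE, chr7:113207261-113207560, plus strand): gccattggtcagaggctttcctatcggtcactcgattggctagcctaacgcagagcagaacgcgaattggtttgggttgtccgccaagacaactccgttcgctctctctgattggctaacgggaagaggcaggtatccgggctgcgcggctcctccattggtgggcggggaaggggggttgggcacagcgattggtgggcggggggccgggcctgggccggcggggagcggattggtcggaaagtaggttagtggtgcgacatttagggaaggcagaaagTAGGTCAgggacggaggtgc
Nfil3 (fell, RORE on the opposite strand, written TGACCTA, chr13:52980990-52981289, minus strand): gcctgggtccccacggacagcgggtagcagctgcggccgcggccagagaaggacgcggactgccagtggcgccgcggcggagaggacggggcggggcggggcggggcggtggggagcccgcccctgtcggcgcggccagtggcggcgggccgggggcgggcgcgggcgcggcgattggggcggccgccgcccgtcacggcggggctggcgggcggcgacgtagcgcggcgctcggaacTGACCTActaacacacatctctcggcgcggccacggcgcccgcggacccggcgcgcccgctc
Cry1 (fell, E-box, chr10:85185005-85185304, minus strand): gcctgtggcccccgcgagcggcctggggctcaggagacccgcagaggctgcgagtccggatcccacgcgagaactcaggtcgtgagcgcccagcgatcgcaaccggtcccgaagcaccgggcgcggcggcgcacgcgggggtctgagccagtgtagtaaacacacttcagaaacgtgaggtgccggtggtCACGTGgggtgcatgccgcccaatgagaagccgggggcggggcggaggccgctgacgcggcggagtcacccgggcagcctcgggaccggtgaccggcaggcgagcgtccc
Per3 held 2 copies of TTATGTAA, and the other 4 promoters held 1 match each. The promoter table has 32851 windows of 300 bases, of which 7.15% hold the E-box, 1.06% the D-box and 2.61% the RORE. Promoters were present for 7 of the 8 clock genes that rose and for 4 of the 5 that fell. An E-box was in the window of 2 of the 7 rising genes (Tef and Bhlhe41) and 1 of the 4 falling genes (Cry1). A D-box was in 1 rising gene (Per3), and a RORE in 2 of the 4 falling genes (Arntl and Nfil3). Of the 19 tested clock genes with a window, 5 held an E-box, 1 a D-box and 2 a RORE. Over all genes that rose and have a window, 9.31% hold an E-box, 1.38% a D-box and 4.14% a RORE, against 10.2%, 0.851% and 4.26% of those that fell and 11.9%, 0.93% and 2.61% of all genes tested. These are matches of letters in short windows and say nothing on binding.

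Totals without albumin lay between 12908159 and 13006799 counts at 4 h and between 12847558 and 12950689 counts at 0 h. The deposited totals were nearly equal, how they came to be so is not given, and they do not show the depth of sequencing. Levels are given as CPM, the usual scaling of counts to library size, here after TMM. Sources and tissue are labelled liver while the cell type is labelled adipocyte. The adipocyte genes Adipoq, Plin1 and Lep had at most 2 counts in any of the 16 libraries. The hepatocyte gene Apoa1 had 41586 to 202632 counts, and the libraries were taken as liver. Retn and Cfd were also too low to test, but 5 of the 10 adipocyte markers were tested (Cidec, Car3, Plin4, Lpl and Fabp4). All 10 summed to 458 to 1370 CPM at 4 h and 200 to 2070 CPM at 0 h. The design text calls the mice male, but Xist had 3344 to 13910 counts in the 16 libraries and 3 genes of the Y chromosome (Eif2s3y, Kdm5d and Uty) at most 1 count. Libraries differed most along a trend with the GC content of the genes: the first principal component took 55.9% of the variance over 16 libraries. The correlation across 8286 genes between GC content and a library's deviation from the mean was 0.611 in KO 4 h replicate 1 and −0.463, −0.646 and −0.644 in KO 4 h replicates 2, 3 and 4, against −0.344 to 0.534 at 0 h in KO, and it lay between −0.216 and 0.618 in WT at 4 h and between −0.327 and 0.59 in WT at 0 h. Genes of other organs or of the acute phase stood out in 3 libraries: KO 4 h replicate 2 had 54369 counts of Saa1, KO 0 h replicate 2 had 907 counts of the pancreatic gene Cela2a, and WT 0 h replicate 3 had 111674 counts of Saa1 and 336 of the adrenal gene Star. Arntl, the gene deleted by Cre, was at 12.7, 10.5, 6.14 and 9.05 CPM in KO livers at 4 h and 36.4, 33.3, 33.2 and 27.0 CPM in KO livers at 0 h. The WT livers had 20.3, 34.2, 12.5 and 17.6 CPM at 4 h against 37.9, 43.8, 29.6 and 37.5 CPM at 0 h. Arntl RNA was thus present in every KO liver. The table counts whole genes, so the deleted part cannot be read apart.

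Of 12791 genes tested, 781 (6.11%) passed an adjusted p of 0.05, with 434 higher at 4 h (3.39%) and 347 lower (2.71%). The changes over 1 on the log2 scale numbered 144, of which 55 rose and 89 fell. All 8 libraries at 4 h lay above all 8 at 0 h for 40 genes (0.313%) and below them for 42 genes (0.328%). The count of calls moved with the libraries used. It was 1202 of 12533 genes (9.59%; 663 or 5.29% higher and 539 or 4.3% lower) once the GC trend of each library was offset, and 626 of the 781 genes kept their call and direction there. The count was 69 (27 higher and 42 lower) without the 3 libraries of unusual content, and 29 (16 higher and 13 lower) without KO 4 h replicates 2, 3 and 4, which leaves 5 libraries against 8. Leaving out 1 library moved it by over 1.5 times for 10 of 16 libraries: 139 without KO 0 h replicate 4, 177 without KO 4 h replicate 4, 201 without KO 0 h replicate 1, 221 without KO 0 h replicate 2, 279 without KO 4 h replicate 3, 342 without KO 4 h replicate 2, 399 without WT 4 h replicate 3, 462 without KO 0 h replicate 3, 483 without WT 0 h replicate 1, and 1914 without KO 4 h replicate 1. Of the 138 genes named by a fixed rule 80 passed, and all 80 kept their direction in every alternative. With each library left out in turn 29 of them passed throughout, among them Dbp, Per3, Cyp2g1, Nr1d2, Pde6c, Tef, Lrtm1, Mterfd3, Rbm3, Cyb5, Tars, Tecpr2, Plin5, Ppp1r3c, Ehhadh, Acot2, Arntl, Tubb2a, Cry1, Rnf125, Fgf21, Fbf1, Npnt, Cdkn1a, Slc25a30, Pdk4 and Irs2. The other 51 all lost their call without KO 0 h replicate 4. In bulk tissue, more cells of a type and more RNA of a gene per cell cannot be told apart.

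A set of 10 named genes passed the test in every alternative run, those that left out libraries included. Among them Dbp, Per3, Nr1d2, Tef, Cyp2g1 and Pde6c rose, and Rnf125 and Tecpr2 fell. The clock genes of the set are described with their lists. Cyp2g1, a cytochrome P450 known from olfactory tissue, ranged over 3.03, 6.44 and 11.5 CPM at 4 h (lowest, median and highest of 8). At 0 h it ranged over 0.306, 1.21 and 2.91 CPM. Its step was 2.30 ± 0.31 (log2 change ± SE, adjusted p = 0.00183), and no library at 4 h was below any at 0 h. Pde6c, the cone photoreceptor phosphodiesterase subunit, was at 2.22, 3.02 and 5.23 CPM at 4 h against 0.314, 0.719 and 1.5 CPM at 0 h, a log2 change of 1.99 ± 0.29 (adjusted p = 0.00253) with no overlap. Rnf125, an E3 ubiquitin ligase known for curbing RIG-I signalling, had 15.5, 28.8 and 55.0 CPM at 4 h against 54.9, 88.1 and 127 CPM at 0 h, a step of −1.47 ± 0.20 (adjusted p = 0.00183), with the highest library at 4 h just above the lowest at 0 h. Tecpr2, a protein of autophagy and secretory trafficking, had 7.30, 11 and 15.5 CPM at 4 h against 17.1, 20.0 and 28.2 CPM at 0 h without overlap, a step of −0.90 ± 0.12 (adjusted p = 0.00183).

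The 3 PAR bZIP factors, activators of genes with a D-box, all rose. Dbp had 74.0, 23.3, 68.4 and 77.4 CPM in KO livers at 4 h and 1.87, 4.21, 2.53 and 2.35 CPM in KO livers at 0 h. Levels in WT livers were 83.1, 11.6, 48.1 and 13.3 CPM at 4 h against 2.69, 2.45, 1.51 and 2.83 CPM at 0 h. Every library at 4 h stood above every library at 0 h, and WT 4 h replicates 2 and 4 and KO 4 h replicate 2 were the lowest of the 4 h libraries. The step of 4.25 ± 0.42 (adjusted p = 0.000147) was the largest rise and had the lowest p of the genes named here. The gene lies at chr7:52960458-52965525 (mm9). Tef had 163, 154, 205 and 209 CPM in KO livers at 4 h against 55.4, 40.8, 60.6 and 46.5 CPM in KO livers at 0 h. In WT livers it was at 159, 103, 169 and 124 CPM at 4 h against 77.7, 81.8, 64.7 and 43.8 CPM at 0 h. The 4 h libraries lay above all 0 h libraries (step 1.45 ± 0.18, adjusted p = 0.000897). Hlf moved least, with 67.4, 81.8 and 92.7 CPM at 4 h against 48.4, 59.2 and 81.8 CPM at 0 h. These overlap, its step was 0.39 ± 0.11 (adjusted p = 0.0488), and the call was lost with the GC offset (0.30, adjusted p = 0.133) and when any 1 of 12 libraries was left out (adjusted p up to 0.109).

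**Figure D1:**
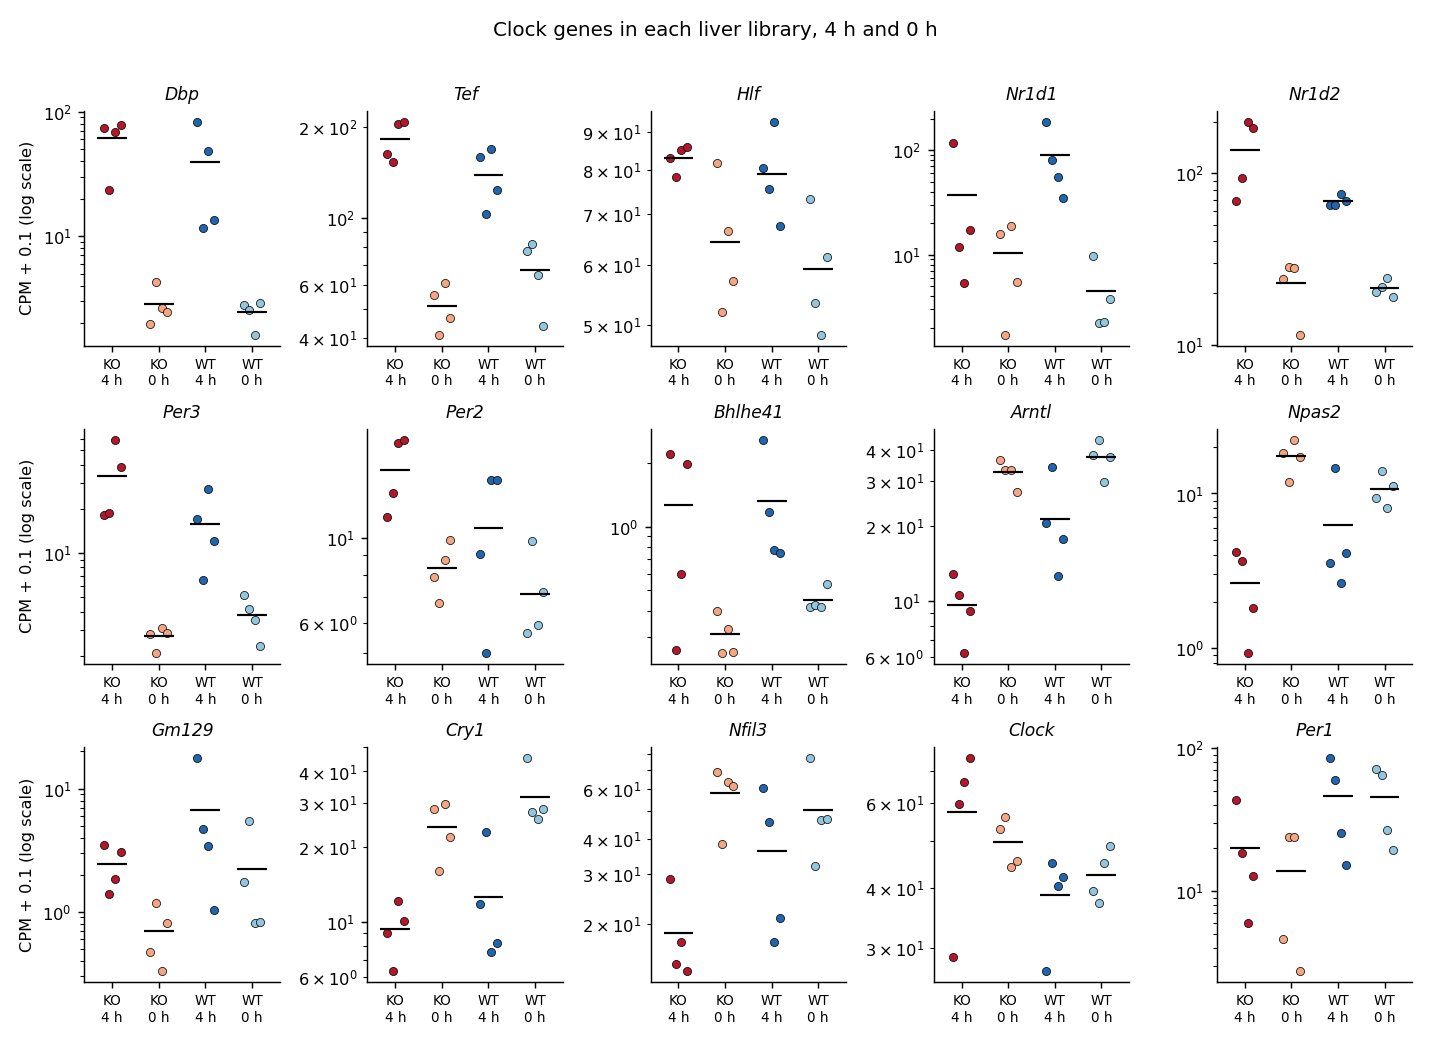
Each point is a liver library, with its CPM plus 0.1 on a log axis that differs between panels, and bars are means of 4 libraries in KO at 4 h, KO at 0 h, WT at 4 h and WT at 0 h. Dbp, Tef, Nr1d2 and Per3 at 4 h lie above every 0 h library, while Clock and Per1 overlap.

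Among 15 tested clock repressors and their partners, 5 rose and 2 fell. Nr1d2 (REV-ERB beta, a heme-binding repressor) had 68.5, 94.1, 200 and 183 CPM in KO livers at 4 h and 24.0, 28.1, 27.9 and 11.3 CPM in KO livers at 0 h. The WT livers had 65.3, 65.2, 75.6 and 68.7 CPM at 4 h against 20.2, 21.6, 24.4 and 18.9 CPM at 0 h. Its groups did not overlap and the step was 2.14 ± 0.25 (adjusted p = 0.000796). Per3, a PER protein that is dispensable for the core rhythm, had 6.50, 18.4 and 59.0 CPM at 4 h against 1.99, 2.87 and 5.05 CPM at 0 h, again without overlap (step 2.87 ± 0.38, adjusted p = 0.00168). Nr1d1 (REV-ERB alpha) was much less even: it had 116, 11.7, 5.22 and 17.1 CPM in KO livers at 4 h and 15.6, 1.61, 18.8 and 5.34 CPM in KO livers at 0 h. Levels in WT livers were 187, 79.8, 55.2 and 34.4 CPM at 4 h against 9.56, 2.12, 2.15 and 3.70 CPM at 0 h. The WT groups were apart and the KO groups overlapped. KO 4 h replicates 2 to 4, the libraries with the falling GC trend, held its low 4 h values, and the GC content of its transcript is 56.8%. The step over both genotypes was 3.07 ± 0.75 (adjusted p = 0.0291), 3.06 with the GC offset (adjusted p = 0.00696) and 4.10 without those 3 libraries (adjusted p = 0.0151). The call was lost when KO 4 h replicate 1, KO 0 h replicate 2 or KO 0 h replicate 4 was left out (adjusted p up to 0.0678). Bhlhe41, which competes for E-boxes, was low, with 0.162, 0.874 and 2.47 CPM at 4 h against 0.153, 0.308 and 0.435 CPM at 0 h (step 2.06 ± 0.46, adjusted p = 0.0233). Per2, a core repressor, had 4.90, 13.5 and 17.9 CPM at 4 h against 5.53, 7.45 and 9.73 CPM at 0 h with overlap (step 0.72 ± 0.20, adjusted p = 0.047, lost when any 1 of 13 libraries was left out, adjusted p up to 0.101).

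Cry1, a repressor whose RNA peaks late in the loop, fell: it had 8.92, 6.24, 12.0 and 9.98 CPM in KO livers at 4 h and 28.2, 15.8, 29.4 and 21.7 CPM in KO livers at 0 h. In WT livers it was at 11.7, 22.7, 7.44 and 8.14 CPM at 4 h against 45.3, 27.3, 25.8 and 28.1 CPM at 0 h. WT 4 h replicate 2 was the high one. The step was −1.35 ± 0.23 (adjusted p = 0.00735). Nfil3, the repressor at D-boxes, had 13.6, 19.1 and 60.6 CPM at 4 h against 32, 54.1 and 77.2 CPM at 0 h with overlap (step −1.06 ± 0.30, adjusted p = 0.046, lost when any 1 of 11 libraries was left out, adjusted p up to 0.103). Gm129, listed elsewhere as Ciart, a repressor of the BMAL1 complex, had 0.936, 3.13 and 17.7 CPM at 4 h against 0.230, 0.721 and 5.39 CPM at 0 h. Its log2 change of 1.78 ± 0.55 did not pass (adjusted p = 0.0609), though it did with the GC offset (adjusted p = 0.0348). Per1 (0.28 ± 0.50, adjusted p = 0.745), Cry2 (0.18 ± 0.24, adjusted p = 0.655) and Bhlhe40 (0.02 ± 0.25, adjusted p = 0.973) did not pass. Per1 ranged from 5.89 to 85.5 CPM at 4 h and from 2.67 to 71.2 CPM at 0 h.

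Of 6 tested activators 3 fell, Arntl and Npas2 among them, and Clock, Rora and Arntl2 did not pass. Arntl was lower in every KO liver at 4 h than in any at 0 h, while WT 4 h replicate 2 (34.2 CPM) lay among the WT livers at 0 h. The step was −1.28 ± 0.22 (adjusted p = 0.00756). Npas2, which can stand in for CLOCK, had 4.07, 3.57, 0.83 and 1.72 CPM in KO livers at 4 h and 18.3, 11.7, 22.2 and 17.1 CPM in KO livers at 0 h. The WT livers had 3.47, 14.6, 2.55 and 4.03 CPM at 4 h against 9.32, 13.9, 7.97 and 11.1 CPM at 0 h. WT 4 h replicate 2 was again the exception, as for Cry1 and Arntl. The step of Npas2 was −1.74 ± 0.44 (adjusted p = 0.0316), lost when any 1 of 8 libraries was left out (adjusted p up to 0.0711). Clock had 26.7, 43.6 and 74.6 CPM at 4 h against 37.0, 45.2 and 56.2 CPM at 0 h, a log2 change of 0.03 ± 0.17 (adjusted p = 0.912) that turned to −0.23 with the GC offset (adjusted p = 0.127). Of the 24 tested genes of the 3 clock lists, 8 rose and 5 fell, against 3.39% and 2.71% of all genes tested. Without KO 4 h replicates 2, 3 and 4, 6 of the 24 rose (Dbp, Tef, Nr1d1, Nr1d2, Per3 and Bhlhe41) and 1 fell.

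The clock output list holds liver genes known as targets of the loop, and 8 of its 28 tested members fell while Leap2, an antagonist of the ghrelin receptor, rose (0.60 ± 0.17, adjusted p = 0.046). Of all genes tested 2.71% fell and 3.39% rose. The list's median log2 change was −0.37, against −0.01 over all genes tested. Tubb2a, a beta tubulin, had 32.6, 65.4 and 159 CPM at 4 h against 142, 175 and 299 CPM at 0 h, the highest 4 h library lying inside the range at 0 h (step −1.34 ± 0.24, adjusted p = 0.00979). Tars, the threonyl-tRNA synthetase, had 79.0, 117 and 160 CPM at 4 h against 146, 186 and 222 CPM at 0 h (step −0.71 ± 0.12, adjusted p = 0.00757). Chka, the choline kinase of phosphatidylcholine synthesis, fell by 0.86 ± 0.19 (adjusted p = 0.0225). The other members that fell were Ppp1r3c, Slc45a3, Insig2, Pdzrn3 and Avpr1a. Upp2, a uridine phosphorylase, had a log2 change of 1.35 ± 0.40 that did not pass (adjusted p = 0.0524). With the GC offset the same 8 fell, Upp2 rose (1.33, adjusted p = 0.0383) and the call of Leap2 was lost (0.41, adjusted p = 0.0546). Without KO 4 h replicates 2, 3 and 4 no gene of this list passed, nor any of the lists of metabolism, stress and other functions that follow.

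Of 26 tested genes of glucose metabolism, 3 fell (Irs2, Igfbp1 and Ppp1r3c) and 1 rose (Slc2a2). The shares of all genes tested were 2.71% and 3.39%, and the median log2 change of the list was 0.10. Irs2, the main docking protein of the insulin receptor in fasted liver, was at 3.44, 0.729, 0.166 and 0.390 CPM in KO livers at 4 h and 27.9, 10.6, 12.1 and 25.3 CPM in KO livers at 0 h. Levels in WT livers were 8.63, 12.7, 5.33 and 8.00 CPM at 4 h against 48, 17.3, 15 and 18.1 CPM at 0 h. Within each genotype no 4 h liver reached the lowest 0 h liver, and KO 4 h replicates 2 to 4 were lowest of all. The step of −2.60 ± 0.53 (adjusted p = 0.0162) was the largest fall of the named genes, and was −1.72 without those 3 libraries (adjusted p = 0.108). Igfbp1, which binds IGF1 and is repressed by insulin, had 11.5, 67.4 and 316 CPM at 4 h against 119, 282 and 399 CPM at 0 h with overlap (step −1.74 ± 0.41, adjusted p = 0.0263). Ppp1r3c, which targets a phosphatase to glycogen, had 94.9, 116 and 187 CPM at 4 h against 172, 254 and 323 CPM at 0 h (step −1.05 ± 0.16, adjusted p = 0.00352). Slc2a2, the glucose transporter GLUT2, rose by 0.62 ± 0.16 (adjusted p = 0.0326), a call lost with the GC offset (0.40, adjusted p = 0.0729). The fall of Igfbp1 was lost without KO 0 h replicate 1, 2 or 4 or KO 4 h replicate 3 (adjusted p up to 0.053), while Irs2 and Ppp1r3c passed with each library left out.

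**Figure D2:**
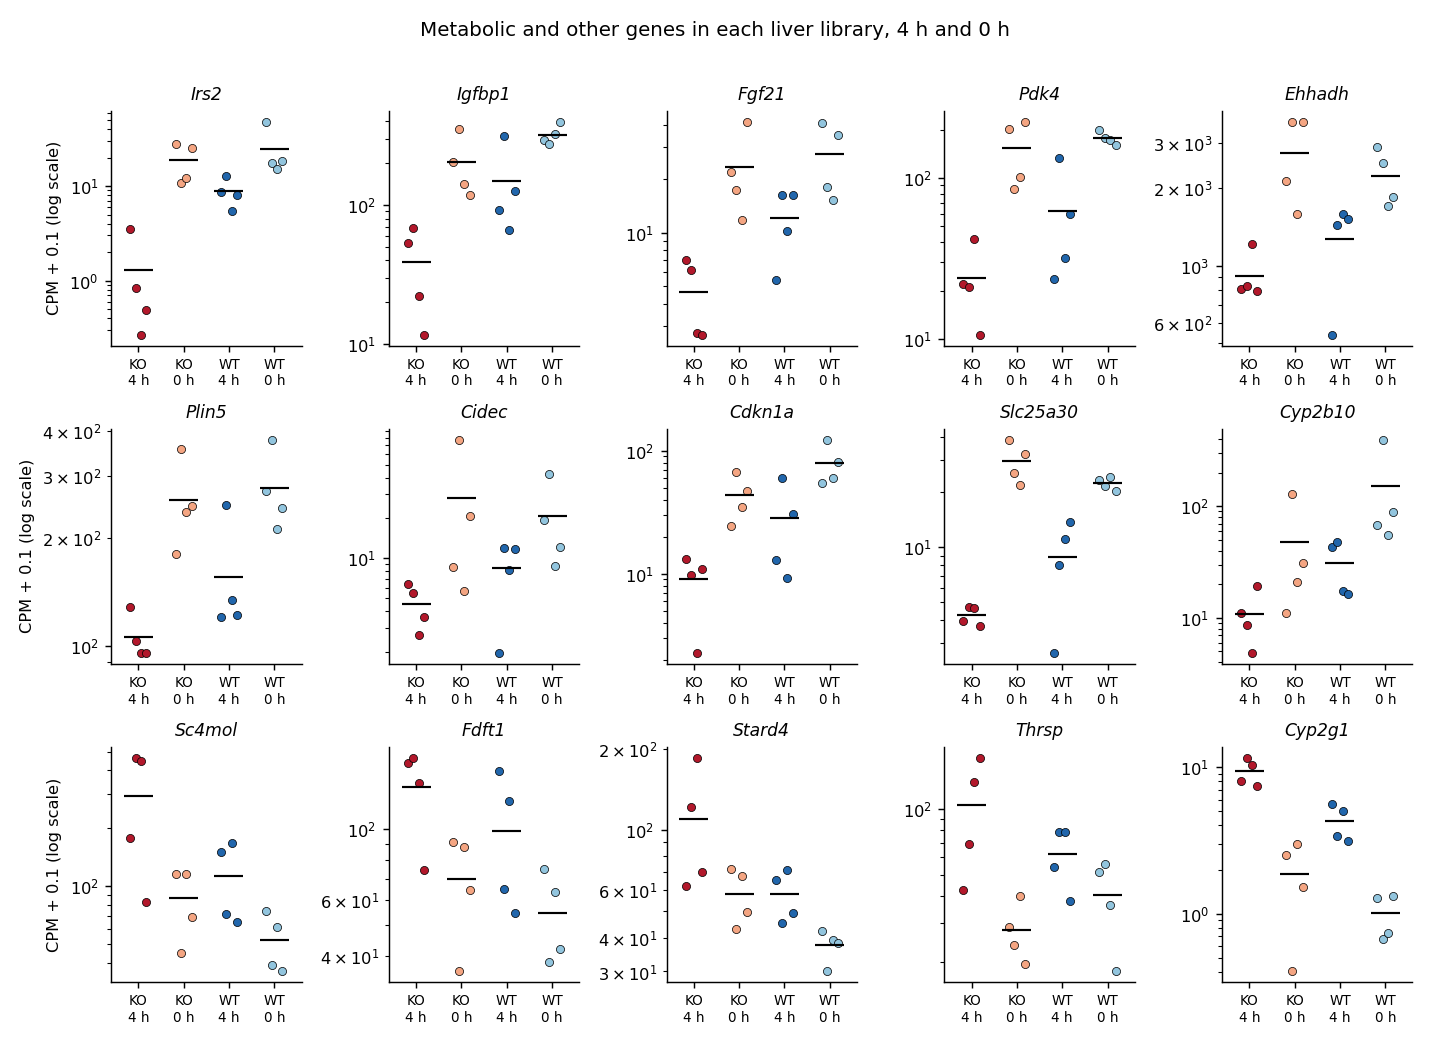
Points are liver libraries (CPM plus 0.1, log axis differing between panels) and bars are means of 4 libraries, in the order KO at 4 h, KO at 0 h, WT at 4 h and WT at 0 h. Irs2, Pdk4 and Slc25a30 are lower at 4 h in both genotypes, with Irs2 at 0.166 to 3.44 CPM in KO livers at 4 h.

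PPAR alpha is the nuclear receptor that turns on fatty acid oxidation in fasting. Among 30 tested genes of that list 9 fell, against 2.71% of all genes tested. The list's median log2 change was −0.41, with 25 members negative and 5 positive, against 6483 negative and 6308 positive of all genes tested. Pdk4, the kinase that shuts off pyruvate dehydrogenase, was at 21.8, 21.0, 41.6 and 10.5 CPM in KO livers at 4 h and 201, 85.5, 101 and 224 CPM in KO livers at 0 h. In WT livers it was at 23.5, 133, 31.8 and 59.6 CPM at 4 h against 200, 176, 171 and 161 CPM at 0 h. Only WT 4 h replicate 2 came within the range of the 0 h livers (step −2.10 ± 0.38, adjusted p = 0.00923). Fgf21, the fasting hormone of liver, had 2.57, 6.48 and 16.1 CPM at 4 h against 11.6, 19.8 and 41.7 CPM at 0 h (step −1.75 ± 0.36, adjusted p = 0.0152). Ehhadh, an enzyme of peroxisomal beta oxidation, had 537, 1019 and 1595 CPM at 4 h against 1588, 2326 and 3627 CPM at 0 h (step −1.20 ± 0.25, adjusted p = 0.0171). Plin5, a lipid droplet protein at mitochondrial contacts, had 95.4, 121 and 248 CPM at 4 h against 181, 245 and 378 CPM at 0 h (step −1.05 ± 0.19, adjusted p = 0.00923). Acot2, a mitochondrial thioesterase, fell by 1.25 ± 0.25 (adjusted p = 0.0152). Acot1, Plin2 and Angptl4 also fell. The mitochondrial enzymes Acadm (0.07 ± 0.12), Acadl (0.08 ± 0.13), Hadhb (0.00 ± 0.13) and Acadvl (−0.01 ± 0.10) did not pass, nor did Cpt1a (−0.27 ± 0.12, adjusted p = 0.15). With the GC offset 10 of the 30 fell. The list's median was −0.65 in KO and −0.20 in WT.

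Of 25 tested genes of sterol synthesis, 4 rose and none fell, against 3.39% and 2.71% of all genes tested, and the list's median log2 change was 0.34. Sc4mol, the sterol C4 methyl oxidase, had 64.9, 158 and 465 CPM at 4 h against 36.0, 65.2 and 116 CPM at 0 h (step 1.44 ± 0.35, adjusted p = 0.0286). Fdft1, squalene synthase, had 54.7, 130 and 167 CPM at 4 h against 35.9, 63.9 and 91.1 CPM at 0 h (step 0.90 ± 0.25, adjusted p = 0.044). Stard4, a sterol carrier, rose by 0.78 ± 0.21 (adjusted p = 0.0369), and Sc5d, a desaturase late in the pathway, by 0.43 ± 0.12 (adjusted p = 0.0448, 0.27 with the GC offset and adjusted p = 0.228). In all 4 the 2 times overlapped, and each call was lost when any 1 of at least 6 libraries was left out (adjusted p up to 0.101). The offset also gave 4 that rose, Insig1 in place of Sc5d. Srebf2, the factor that drives the pathway, did not pass (−0.21 ± 0.31, adjusted p = 0.68). In the lipogenesis list of 24 genes, Thrsp (Spot 14, a lipogenic nuclear protein) rose by 1.26 ± 0.33 (adjusted p = 0.036), and Acacb, the acetyl-CoA carboxylase whose product blocks fatty acid entry into mitochondria, fell by 1.12 ± 0.25 (adjusted p = 0.0233). Scd1, the stearoyl-CoA desaturase, had a log2 change of 1.02 ± 0.31 that did not pass (adjusted p = 0.058). Of 20 bile acid genes only Abcb4, the phosphatidylcholine pump of the canaliculus, passed, with 210, 344 and 426 CPM at 4 h against 458, 504 and 593 CPM at 0 h and no overlap (step −0.64 ± 0.15, adjusted p = 0.0283). Cyp7a1, whose enzyme sets the rate of making bile acids, had 90.4, 179 and 614 CPM at 4 h against 49.8, 103 and 161 CPM at 0 h, a log2 change of 1.00 ± 0.31 (adjusted p = 0.06).

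In the xenobiotic list of 29 genes, 1 rose and 1 fell, near the 3.39% and 2.71% of all genes tested. The list's median log2 change was 0.14, against −0.01 over all genes tested. Cyp2a5, the coumarin hydroxylase, rose by 1.28 ± 0.30 (adjusted p = 0.0263). Cyp2b10, the classic target of the receptor CAR, fell by 2.23 ± 0.53 (adjusted p = 0.0272). Cyp2b10 had 11, 8.43, 4.73 and 19.0 CPM in KO livers at 4 h and 11, 130, 20.9 and 31.0 CPM in KO livers at 0 h. The WT livers had 42.9, 47.7, 17.4 and 16.1 CPM at 4 h against 68.5, 397, 55.6 and 89.7 CPM at 0 h. Replicate 2 was the highest 0 h liver in both genotypes. Each call was lost when any 1 of 5 libraries was left out (adjusted p up to 0.0685), and reads of these Cyp2a and Cyp2b genes and of Sult2a7 may be shared with near-identical copies. Ugt1a1, which conjugates bilirubin, had 255, 42.9, 28.1 and 34.5 CPM in KO livers at 4 h and 417, 309, 336 and 426 CPM in KO livers at 0 h. Levels in WT livers were 251, 261, 297 and 333 CPM at 4 h against 513, 522, 331 and 384 CPM at 0 h. The 3 low livers were KO 4 h replicates 2, 3 and 4, and the step of −1.33 ± 0.41 did not pass (adjusted p = 0.06).

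Cytosolic ribosomal protein genes stood slightly higher at 4 h: 15 of 78 rose, against 3.39% of all genes tested. A positive log2 change was seen in 76, against 6308 of 12791 of all genes tested. The list's median was 0.39, against −0.01 over all genes tested. The median was 0.59 in KO and 0.11 in WT, and 0.39 over both genotypes with the GC offset, where 21 rose. Library deviations also correlated with transcript length, at −0.236 to −0.0934 in KO at 4 h and −0.0172 to 0.296 in KO at 0 h. In WT this lay between −0.114 and 0.191 at 4 h and between −0.0334 and 0.196 at 0 h. No fit offset the length trend, and its part in this list was not tested. Rps21 had 224, 236 and 343 CPM at 4 h against 161, 180 and 212 CPM at 0 h without overlap (step 0.46 ± 0.11, adjusted p = 0.0267), and Rpl22l1 had the largest change among the named ones (0.84 ± 0.18, adjusted p = 0.019). Without KO 4 h replicates 2, 3 and 4 none of the 78 passed. Of 30 genes of ribosome biogenesis, 4 fell: Nop2, a nucleolar RNA methyltransferase, by 0.79 ± 0.20 without overlap (adjusted p = 0.0343), Nolc1 by 0.67 ± 0.14 (adjusted p = 0.0202), Polr1e by 0.50 ± 0.14 (adjusted p = 0.0494, lost with the GC offset at adjusted p = 0.104) and Tsr1 by 0.41 ± 0.11 (adjusted p = 0.0369). The cold-inducible RNA-binding gene Rbm3 had 65.4, 96.5 and 173 CPM at 4 h against 39.2, 50.0 and 71.8 CPM at 0 h (step 1.01 ± 0.19, adjusted p = 0.0121). Its relative Cirbp did not pass (0.40 ± 0.21, adjusted p = 0.232), though it did with the GC offset (0.50, adjusted p = 0.0497). Of 21 heat shock chaperones 2 fell: Hspb1 had 1.79, 6.34 and 13.9 CPM at 4 h against 6.09, 19.2 and 31.9 CPM at 0 h (step −1.38 ± 0.37, adjusted p = 0.0395), and Ahsa1, a cochaperone of HSP90, fell by 0.51 ± 0.12 (adjusted p = 0.0263). The GC offset gave 6 of the 21 that fell, Chordc1, Hsp90aa1, Hspa4l and Hsph1 besides these. Of 23 autophagy genes 3 fell. Sqstm1, a cargo receptor, fell by 0.51 ± 0.14 (adjusted p = 0.0462). Map1lc3b fell by 0.46 ± 0.13 (adjusted p = 0.044) and Wipi2 by 0.41 ± 0.09 (adjusted p = 0.0233). Beside the falls in the ribosome biogenesis, heat shock and autophagy lists, 2.71% of all genes tested fell, or 4.3% with the GC offset.

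**Figure D3:**
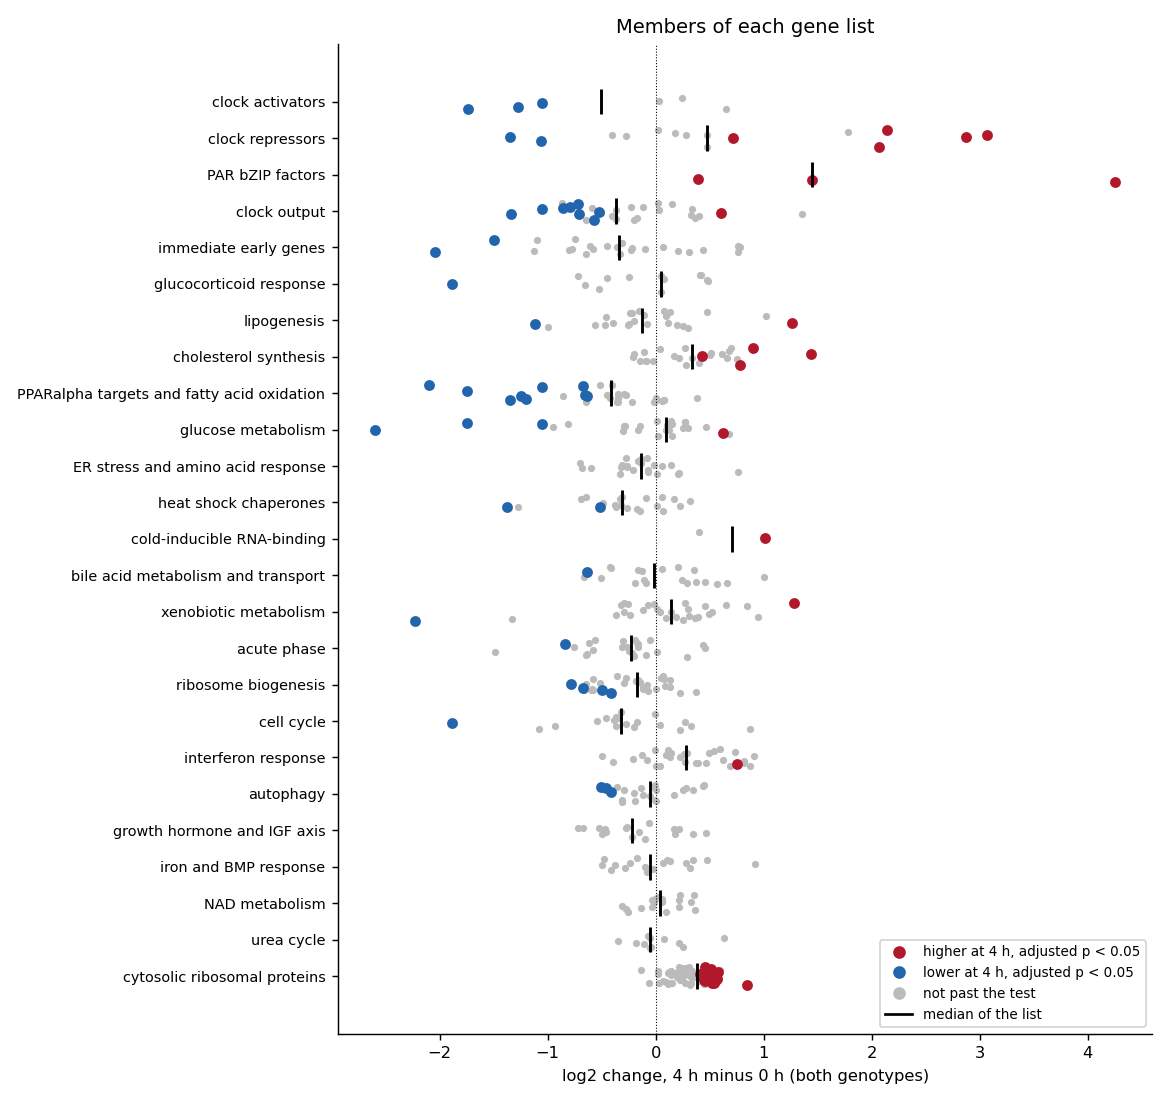
Each point is a tested member of a list, placed at its log2 change of 4 h minus 0 h over both genotypes, in colour where the adjusted p is under 0.05, and black bars are list medians. PAR bZIP factors lie to the right up to 4.25, PPAR alpha targets mostly to the left, and ribosomal protein genes in a narrow band around 0.39.

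Cdkn1a (p21), an inhibitor of the cell cycle that stands in the glucocorticoid and cell cycle lists, was the single member of either list to pass (with the GC offset Mcm4 of the cell cycle list passed too). It had 2.16, 11.7 and 59.8 CPM at 4 h against 24.3, 57.4 and 123 CPM at 0 h with overlap (step −1.88 ± 0.40, adjusted p = 0.019). Of 24 immediate early genes, which respond within minutes to stimuli, Fos (−1.49 ± 0.37, adjusted p = 0.0315) and Nr4a1 (−2.04 ± 0.55, adjusted p = 0.0386) fell. With the GC offset both fell, and Gadd45a, Mcl1 and Zfp36 rose. Fos stood at 0.157, 0.871 and 4.11 CPM at 4 h against 0.450, 2.43 and 14.3 CPM at 0 h, so it was low in every liver. One of 30 interferon response genes, Isg15, a ubiquitin-like modifier, rose by 0.75 ± 0.19 (adjusted p = 0.0301). It had 16.6 to 21.5 CPM in KO livers at 4 h against 6.07 to 9.89 CPM at 0 h. In WT livers it had 5.05 to 11 CPM against 4.49 to 7.11 CPM. The call was lost when any 1 of 8 libraries was left out (adjusted p up to 0.0686). Of 24 acute phase genes 1, the fibrinogen chain Fga, fell by 0.84 ± 0.22 (adjusted p = 0.0357). Its call was lost without any 1 of 10 libraries (adjusted p up to 0.0803), WT 0 h replicate 3 (13300 CPM) included. Median log2 changes in KO and WT were 0.73 and −0.002 for the interferon list and 0.24 and −0.76 for the acute phase list. By edgeR's test no member passed among 23 genes of the endoplasmic reticulum stress and amino acid response (3 at an unadjusted p under 0.05, and 2 called by DESeq2, 1 higher and 1 lower), 17 of the growth hormone and IGF axis (2 unadjusted, 1 by DESeq2), 18 of iron and BMP response (2 unadjusted, 0 by DESeq2), 18 of NAD metabolism (3 unadjusted, 0 by DESeq2) and 11 of the urea cycle (1 unadjusted, 1 by DESeq2). With the GC offset, Trib3 of the first list rose and Dnajb9 and Sesn2 fell. Hfe2 of the iron list and Haao and Nmnat3 of the NAD list rose there, and no growth hormone or urea cycle gene passed. Of all genes tested 6.11% passed, or 9.59% with the GC offset.

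Large rises and falls outside the lists, and changes of abundant genes, follow. Cxcl1, a neutrophil attractant, had 3.6, 5.02 and 13.7 CPM at 4 h against 0.785, 1.55 and 4.70 CPM at 0 h (step 1.76 ± 0.38, adjusted p = 0.0212). Tpmt, which methylates thiopurines, had 14.9, 58.5 and 117 CPM at 4 h against 14.1, 15.5 and 35.6 CPM at 0 h (step 1.71 ± 0.37, adjusted p = 0.02). Erbb4 rose by 1.6 ± 0.39 (adjusted p = 0.0293) and Lcor by 2.03 ± 0.57 (adjusted p = 0.0459), and the call of Lcor was lost when any 1 of 12 libraries was left out (adjusted p up to 0.109), KO 4 h replicate 1 being at 0.0783 CPM. Among abundant genes, Cyb5 (cytochrome b5) had 1608, 1751 and 3764 CPM at 4 h against 930, 1279 and 1539 CPM at 0 h without overlap (step 0.77 ± 0.16, adjusted p = 0.0152). Mgst1, a microsomal glutathione transferase, rose by 0.69 ± 0.16 (adjusted p = 0.0233), and Asgr1, a subunit of the asialoglycoprotein receptor, by 0.48 ± 0.11 (adjusted p = 0.0229). Among the further falls, Slc25a30, a mitochondrial carrier, had 2.54, 4.59 and 13.6 CPM at 4 h against 20.2, 23.8 and 38.8 CPM at 0 h without overlap (step −2.07 ± 0.31, adjusted p = 0.00264). Npnt (nephronectin, a matrix protein) fell by 1.88 ± 0.35 (adjusted p = 0.0113), Loxl4 (a lysyl oxidase) by 2.07 ± 0.48 (adjusted p = 0.0248), Cbfa2t3 (a corepressor) by 1.79 ± 0.42 (adjusted p = 0.0266) and Fbf1 (a protein of cilia) by 1.79 ± 0.38 (adjusted p = 0.0181).

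Cidec, a lipid droplet protein of adipocytes and of fatty liver, fell by 1.96 ± 0.55 (adjusted p = 0.0446), with 1.85, 5.84 and 11.9 CPM at 4 h against 5.59, 15.7 and 77.1 CPM at 0 h, and was the single marker gene of another cell type to pass among 5 tested adipocyte markers (5 more were too low to test). Of the other marker lists, by edgeR's test no member passed among 14 macrophage and Kupffer genes (3 at an unadjusted p under 0.05), 12 endothelial genes (4), 12 stellate and fibroblast genes (1), 10 lymphocyte genes (2), 7 bile duct genes (1), 5 red blood cell genes (1), 3 neutrophil genes (0), 2 adrenal genes (2), 1 pancreatic gene (0) and 13 hepatocyte genes (1), and DESeq2 called 1 hepatocyte gene and none of the rest. A negative log2 change was seen in 6483 of 12791 of all genes tested and in all 12 endothelial genes. It was also seen in 13 of 14 macrophage, 10 of 12 stellate, 5 of 5 red blood cell and 3 of 3 neutrophil genes. The counts were 9 of 13 for hepatocyte, 5 of 10 for lymphocyte, 3 of 7 for bile duct and 2 of 5 for adipocyte genes. These signs are over both genotypes. The median log2 change was 0.07 in KO and −1.09 in WT for macrophage genes, and 0.46 and −3.62 for neutrophil genes. It was negative in KO and WT for endothelial (−0.49 and −0.18), stellate (−0.46 and −0.06) and red blood cell genes (−0.25 and −1.22). Summed endothelial genes spanned 204 to 324 CPM at 4 h against 254 to 404 CPM at 0 h. Summed macrophage genes spanned 206 to 686 CPM at 4 h against 197 to 1860 CPM at 0 h, and summed neutrophil genes 2.03 to 29.2 CPM at 4 h against 2.32 to 462 CPM at 0 h. The part of these cell types in the falls was not tested.

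Within KO livers 1484 of 12791 genes passed between 4 h and 0 h (11.6%), with 884 higher (6.91%) and 600 lower (4.69%). Within WT livers 2 passed (0.0156%), one of them Dbp (4.03 ± 0.60, adjusted p = 0.0447), while 875 had an unadjusted p under 0.05 and DESeq2 called 37. With the replicate number as a block the WT step had 5 calls. The difference between the genotypes did not pass for any gene in edgeR's test, with 1137 at an unadjusted p under 0.05 and 1 call by DESeq2, so a step passed in KO and not in WT is not shown to differ. The WT count was at 0 to 3 and the KO count at 100 to 5567 when 1 library was left out. Without KO 4 h replicate 1, whose GC trend runs against the other KO livers at 4 h, 1727 genes passed the difference between the genotypes and 5567 the KO step. Without KO 4 h replicates 2, 3 and 4 no gene passed the KO step (1117 at an unadjusted p under 0.05), a fit in which the lone KO liver at 4 h is taken to vary like the other groups. All 781 genes called over both genotypes had the same sign in KO and in WT, against 61.3% of all genes tested. That direction is partly fixed by the test over both. Of the 781, 677 had the larger change in KO. The share of all genes with the larger change in KO was not counted, so this is not shown to be a trait of the called genes. Irs2 had −3.98 ± 0.67 in KO and −1.5 ± 0.57 in WT, and Arntl −1.76 ± 0.27 in KO and −0.82 ± 0.26 in WT, each with an adjusted p of 0.51 for the difference. Nr1d1 went the other way, with 1.86 ± 0.89 in KO and 4.34 ± 0.99 in WT (adjusted p = 0.51).

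The lowest p-values for the difference belonged to Cgn, Pm20d2 and Fmr1nb, all with an adjusted p of 0.51. Cgn (cingulin, of tight junctions) had 24.5, 25.7, 23.1 and 18.9 CPM in KO livers at 4 h and 54.5, 42.1, 52.0 and 58.7 CPM in KO livers at 0 h. In WT livers it was at 34.0, 38.0, 36.1 and 38.7 CPM at 4 h against 46.4, 41.3, 37.4 and 32.9 CPM at 0 h. The KO groups were apart and the WT groups overlapped. Pm20d2 had 0.324 to 0.704 CPM in KO livers at 4 h and 1.30 to 1.57 CPM in KO livers at 0 h, against 0.925 to 1.28 CPM in WT livers at 4 h and 0.790 to 1.16 CPM in WT livers at 0 h. Fmr1nb had 0, 0, 0.912 and 1.01 CPM in KO livers at 4 h and 0.290 to 1.47 CPM in WT livers at 0 h, and at most 0.077 CPM in the other libraries, so it was near the limit of detection.

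The median step of the genes followed their GC content in KO and hardly in WT. With the genes cut into 10 bins by GC content, the lowest bin (mean 39.3%) had a median log2 change of 0.597 in KO and 0.00482 in WT. In the highest bin (mean 59.8%) it was −0.379 in KO and 0.0882 in WT. With the GC offset these medians were 0.0353 and −0.0141 at the low end and −0.0395 and −0.0410 at the high end for KO and WT. Genes that rose over both genotypes had a median GC content of 47.0% and genes that fell one of 51.2%, against 49.6% over all genes tested. With the offset they had 50.0% and 51.0%. Falls of GC-rich genes such as Irs2 (56.6%) and Plin5 (58.9%), and rises of GC-poor genes such as Tpmt (42.7%) and Rbm3 (41.5%), ran along this trend, and each passed with the offset too (adjusted p = 0.0035, 0.0173, 0.00964 and 0.00546). Dbp (61.6%), Tef (53.1%) and Per3 (52.4%) rose against it, and Slc25a30 (45.4%) and Pdk4 (44.9%) fell against it. What made the trend was not tested.

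**Figure D4:**
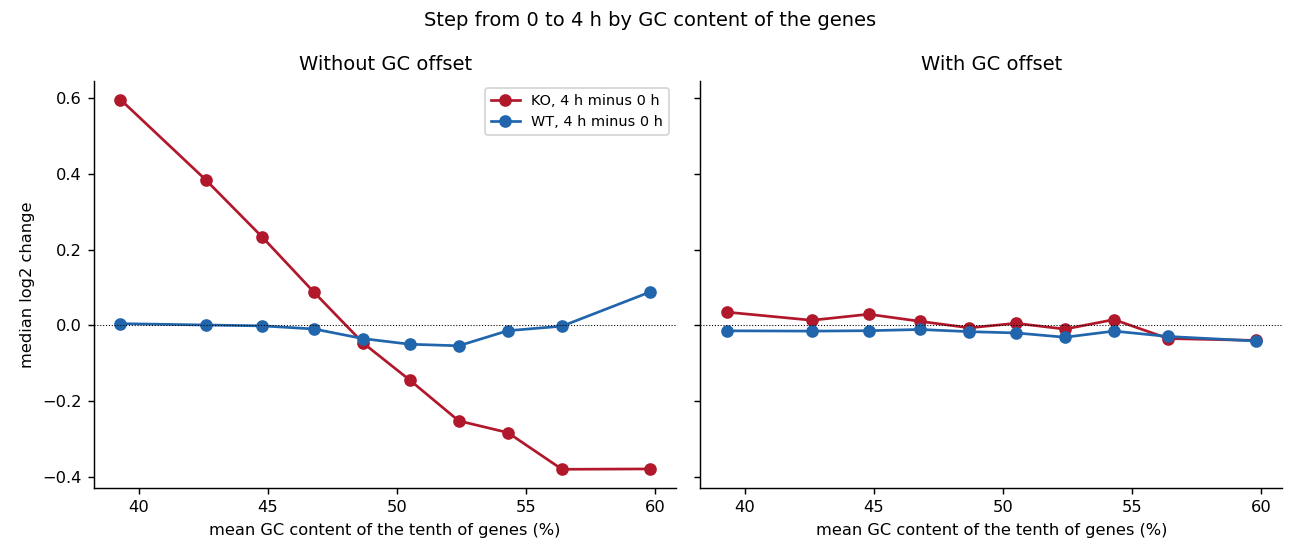
Each point is the median log2 change, 4 h minus 0 h, of 1 of 10 bins of tested genes placed at its mean GC content, for KO and WT, without (left) and with (right) the GC offset. The KO line runs from 0.597 at the lowest GC content to −0.379 at the highest on the left and stays near 0 on the right, and the WT line stays near 0 in both.

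Over the 6 collection times, the genes that rose between 0 h and 4 h had their lowest median level at 0 h in 65.4% of 434, against 23% of all 12791 tested genes. Their highest was at 4 h in 39.4% (13.8% of all genes), at 8 h in 32.3% (22.1%) and at 12 h in 26.7% (11.1%). Of the 347 that fell, 74.1% had their highest median level at 0 h (24.8% of all genes) and 14.7% at 20 h (12%). Their lowest was at 4 h in 41.2% (16.7% of all genes), at 8 h in 35.4% (21.4%) and at 12 h in 20.2% (12.2%). The libraries at 0 h and 4 h chose these genes, so a part of this is fixed. Scaled over all 48 libraries, Dbp had medians of 2.48, 57.9, 110, 51.6, 12.8 and 4.90 CPM from 0 h to 20 h, with the highest at 8 h, and Tef 57.9, 160, 349, 338, 213 and 125 CPM. Nr1d1 was highest at 4 h, with 4.49, 44.6, 38.7, 8.04, 5.86 and 3.30 CPM. Arntl was lowest at 12 h, with 34.8, 12.5, 2.51, 2.29, 17.3 and 31.1 CPM. Irs2 had 17.6, 4.37, 4.04, 3.24, 7.75 and 16.0 CPM.

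**Figure D5:**
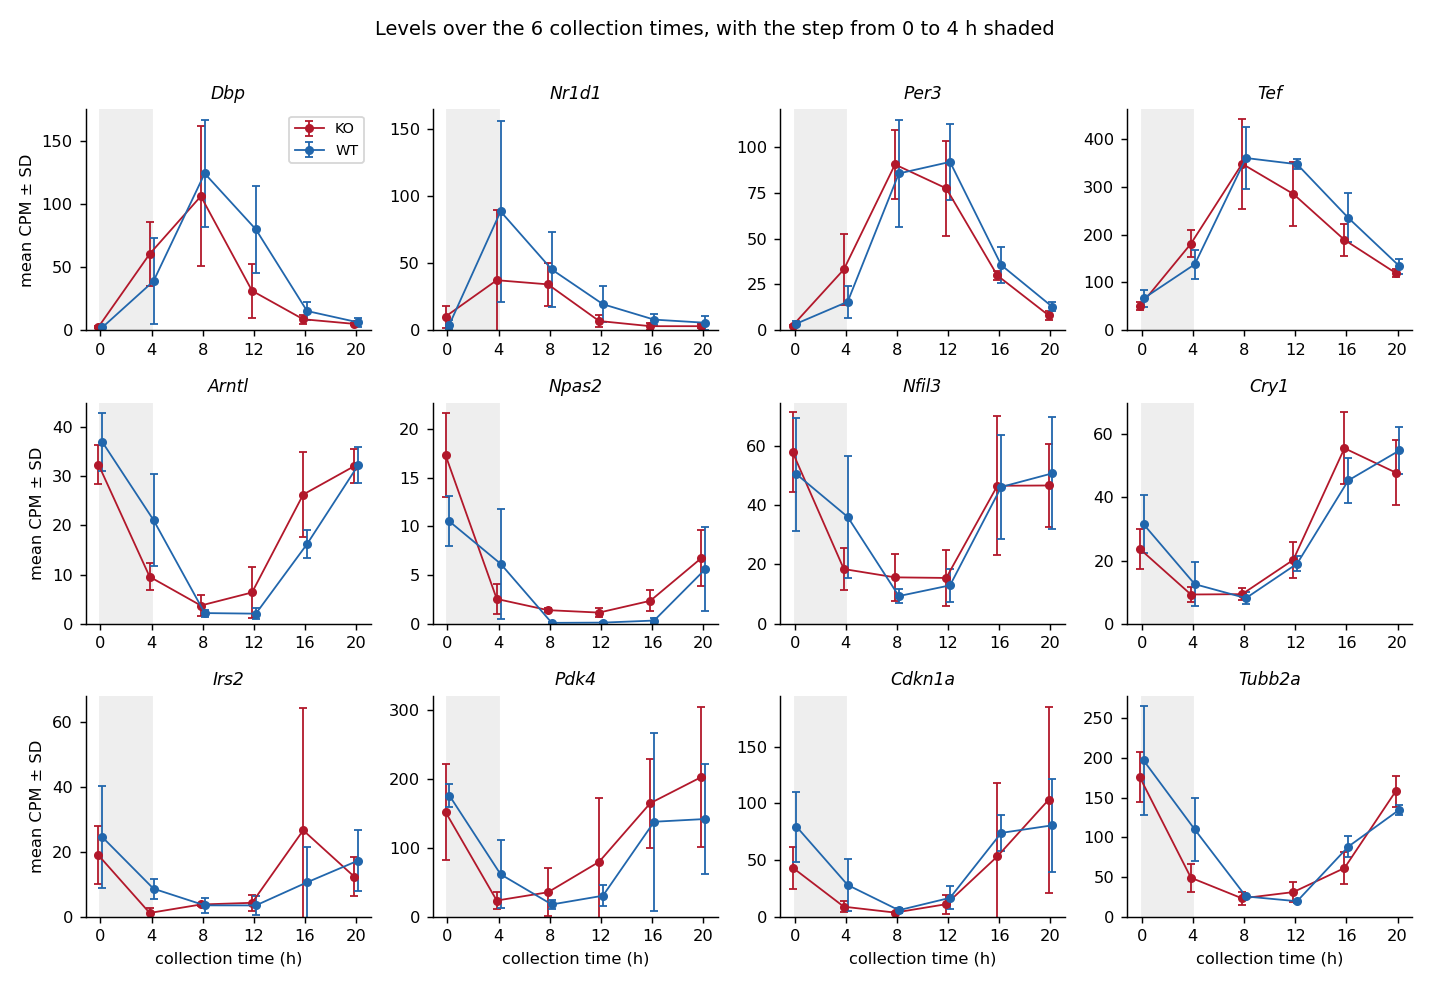
Mean CPM ± SD over the collection times 0 to 20 h for KO and WT, with 3 to 5 libraries a point and the step from 0 to 4 h shaded. Dbp, Nr1d1, Per3 and Tef are low at 0 h and climb in the shaded step, and Arntl, Npas2, Nfil3, Cry1, Irs2, Pdk4, Cdkn1a and Tubb2a come down in it.

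The step between 12 h and 16 h lies on the far side of the day and shares no library with 0 h and 4 h. There 39 of 13059 genes passed (0.299%). Of the 772 genes called between 0 h and 4 h and tested in both steps, 688 (89.1%) had the opposite sign between 12 h and 16 h, against 68.7% of all 12663 genes tested in both. The calls of both steps shared 21 genes, which is 2.72% of the first list and 53.8% of the second, and all 21 had opposite directions. Dbp (−2.14 between 12 h and 16 h, adjusted p = 0.0122), Per3 (−1.37, adjusted p = 0.00712) and Cyp2g1 (−1.80, adjusted p = 0.0437) were lower at 16 h than at 12 h. Arntl (2.56, adjusted p = 0.0109), Cry1 (1.34, adjusted p = 0.000434), Nfil3 (1.73, adjusted p = 0.0338), Tubb2a (1.66, adjusted p = 0.0109), Npnt (2.48, adjusted p = 0.0122), Hspb1 (2.52, adjusted p = 0.0122), Cyp2b10 (3.02, adjusted p = 0.0124) and Chka (1.35, adjusted p = 0.0122) were higher. The remaining shared genes were Clpx, Dtx4, Rnf144a, Ccng2, Slc30a10, Map4k4, Avpr1a, Hsd3b2, Mycl1 and Pion. The 0 to 4 h step differed from the 12 to 16 h step, in size or sign, for 1168 of 13434 genes (8.69%) and for 469 of the 781 (60.1%), a share that the choice of the 781 raises. For some genes that passed in the first step the estimate of the second was small. Fgf21 had −1.75 ± 0.36 against −0.01 between 12 h and 16 h. Fbf1 had −1.79 ± 0.38 against −0.13, and Sc4mol 1.44 ± 0.35 against −0.02. These values alone do not show that the 2 steps differ.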

How the data were processed

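Liver poly-A RNA was sequenced from 48 mice, and 16 libraries are compared here. The submitters' processing notes name build mm9, STAR 2.4.1d and CASAVA, and no counting tool. The deposited table holds counts per gene from the authors, as whole numbers for 22354 genes (171 symbols repeat). Totals without albumin are nearly equal in all 16 libraries, and how is not given; the albumin row did not share this and was left out. Per the labels' protocols the kit does not keep strand and used 13 PCR cycles, so reads of overlapping genes cannot be told apart and counting intervals would cover counting error only. No pair of libraries of 1 group agreed within sampling noise (lowest chi-square per degree of freedom 22.4).

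Counts were tested with edgeR 4.0.16 in R 4.3.3 (TMM scaling, filterByExpr at 10 counts per library and 15 in all, quasi-likelihood F-test, two-sided, Benjamini-Hochberg over all 12791 genes, threshold 0.05), with genotype as a covariate for the step and group means for KO, WT and their difference. The filter removed 9562 genes. Standard errors are the log2 change over the square root of F. DESeq2 1.42.0, RLE size factors, no filter, all 48 libraries, a replicate block, leaving out libraries and an offset for GC content were alternatives. The GC offset (loess of span 0.3 on gene GC content of the longest GENCODE M21 transcript, 98.0% of tested genes) and the fits without KO 4 h replicates 2, 3 and 4 were added after the data were seen. The members and lists were chosen with earlier results of these data known. Genes named are the 15 largest changes in each direction that average 1 CPM or more and have the same sign in both genotypes, the 5 lowest p-values and the 5 highest levels in each direction, the clock lists, the 4 members of lowest p of each other list and the 3 genes of lowest p for the difference between genotypes. Other genes of a list named in the text were chosen after their values were seen.

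Replicate numbers are shared between groups. Deviations of same-numbered WT libraries at 4 h and 0 h correlated at 0.21 to 0.59 over 2000 genes. Differently numbered WT libraries correlated at −0.694 to 0.521, so the WT numbers are not shown to mark pairs. In KO the same-numbered libraries correlated at −0.354 to 0.304. Between KO and WT same-numbered libraries correlated at 0.138 to 0.628 at 4 h and at −0.331 to 0.631 at 0 h. The main steps were tested without pairing, and the replicate block was an alternative fitted over both genotypes. Each p from a fit of group means (KO, WT, their difference and the difference of the steps) rests on the spread between mice within a group. The steps over both genotypes were fitted with genotype as a covariate. Their spread thus also holds any difference of the step between KO and WT. Results for some genes are not reported here.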

Additional observations from a re-analysis of the deposited data

Results flagged for a closer look

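In each group of 4 libraries, a gene was marked where 1 library stood apart from the other 3 by more than Dixon's limit of 95%. Chance marks about 1 in 20 groups, and 33 of 552 gene and group pairs were marked. Among KO livers at 4 h, Dbp in replicate 2 (23.3 CPM, low side, nearest 68.4 CPM), Lcor in replicate 1 (0.0783 CPM, low side, nearest 3.24 CPM) and Cyp2a5 in replicate 2 (715 CPM, low side, nearest 1610 CPM) stood apart. So did Apoc4 in replicate 1 (1280 CPM, low side, nearest 1980 CPM), Bhlhe40 in replicate 1 (62.4 CPM, high side, nearest 34.2 CPM) and Ahsa1 in replicate 4 (56.9 CPM, low side, nearest 81.9 CPM). Also apart were Btg2 in replicate 1 (13.1 CPM, high side, nearest 5.85 CPM), Ehhadh in replicate 3 (1210 CPM, high side, nearest 833 CPM) and Npnt in replicate 2 (4.05 CPM, high side, nearest 1.49 CPM). To these came Cdkn1a in replicate 3 (2.16 CPM, low side, nearest 9.72 CPM) and Nr4a1 in replicate 1 (2.19 CPM, high side, nearest 0.567 CPM). Among KO livers at 0 h, Nr1d2 in replicate 4 (11.3 CPM, low side, nearest 24 CPM), Cry2 in replicate 2 (24.1 CPM, low side, nearest 32.2 CPM) and Bhlhe40 in replicate 2 (29.9 CPM, low side, nearest 50.8 CPM) stood apart. The list went on with Fmr1nb in replicate 2 (0.0765 CPM, high side, nearest 0 CPM), Bcl6 in replicate 4 (22 CPM, high side, nearest 8.49 CPM) and Onecut1 in replicate 4 (1.18 CPM, low side, nearest 1.99 CPM). More marks fell on Fkbp5 in replicate 3 (29 CPM, low side, nearest 64.5 CPM). Among WT livers at 4 h, Mcm7 in replicate 1 (23.6 CPM, high side, nearest 16.4 CPM), Il6ra in replicate 4 (27 CPM, high side, nearest 17.1 CPM) and Abcb4 in replicate 1 (271 CPM, low side, nearest 397 CPM) stood apart. Others were Hsph1 in replicate 4 (39.5 CPM, high side, nearest 26.3 CPM), Plin5 in replicate 2 (248 CPM, high side, nearest 134 CPM) and Ppp1r3c in replicate 4 (187 CPM, high side, nearest 121 CPM). Marked as well were Ehhadh in replicate 1 (537 CPM, low side, nearest 1440 CPM). Among WT livers at 0 h, Bhlhe41 in replicate 4 (0.435 CPM, high side, nearest 0.326 CPM), Erbb4 in replicate 4 (1.09 CPM, high side, nearest 0.395 CPM) and Hamp2 in replicate 3 (64.2 CPM, low side, nearest 316 CPM) stood apart. In the same group came Otc in replicate 3 (301 CPM, low side, nearest 394 CPM), Itih3 in replicate 3 (5730 CPM, high side, nearest 2110 CPM) and Acsl1 in replicate 3 (1230 CPM, low side, nearest 1730 CPM). Then there were Cry1 in replicate 1 (45.3 CPM, high side, nearest 28.1 CPM) and Irs2 in replicate 1 (48 CPM, high side, nearest 18.1 CPM). The acute phase library WT 0 h replicate 3 held the marks of Hamp2, Otc, Itih3 and Acsl1. The part of these libraries in the steps was not tested beyond leaving each out.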

How the results depend on the processing

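Direction was kept by all 80 named genes that passed, and 73 of the 79 with a GC value passed with the GC offset. The genes with a turned direction had not passed: Clock (−0.0132 with the replicate block, −0.23 with the GC offset, −0.24 with both, −0.30 without KO 4 h replicates 2, 3 and 4, −0.29 without them with the offset, and −0.0483 to 0.131 with 1 library left out), Bhlhe40 (−0.0783 with the block, −0.0699 without the 3 libraries of unusual content, −0.0163 with block and offset, −0.198 to 0.103 with 1 library left out), Rora (−0.0137 with the offset, −0.0139 with the block as well, −0.12 without the 3 KO livers, −0.0833 with the offset too), Igf1 (−0.14 and −0.11 in the same fits), Csnk1d (0.12 and 0.0686), Fmr1nb (0.00186 over all 48 libraries, −1.18 to 0.029 with 1 library left out), Per1 (−0.0531 to 0.442) and Cry2 (−0.0222 to 0.285), both lowest without KO 4 h replicate 1. The cause was not tested.

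For the step over both genotypes, 781 calls became 448 with no filter, 1610 by DESeq2, 1021 with the replicate block, 1202 with the GC offset, 1600 with both, 69 without the 3 libraries of unusual content, 29 without KO 4 h replicates 2, 3 and 4 and 66 there with the offset, and 139 to 1914 with 1 library left out. In KO, 1484 became 947, 2466 by DESeq2, 758 over all 48 libraries, 2728 with the block, 2283 with block and offset, 74 without the unusual libraries, 0 without the 3 KO livers, and 100 to 5567 with 1 left out. In WT, 2 became 37 by DESeq2, 8 over all 48 libraries, 5 with the block, 9 with block and offset, 0 without the unusual libraries (579 at an unadjusted p under 0.05), and 0 to 3 with 1 left out. The difference between genotypes had 1 call by DESeq2, 2 over all 48 libraries and 0 to 1727 with 1 left out. Between 12 h and 16 h, 39 became 207 by DESeq2 and 108 with the offset (17 to 114 with 1 left out), and for the difference of the steps 1168 became 745 with no filter (716 to 2805). Same-numbered KO libraries at 4 h and 0 h correlated at −0.354 to 0.304, which did not meet the rule for pairs. Differently numbered WT libraries reached 0.521. The block, fitted over both genotypes, was thus not taken as a pairing for either.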
